A study of Mus musculus with 4 samples.

Results

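The 200 most frequent reads of 18 to 27 nt without a miRNA hairpin match were examined in small RNA libraries of mouse fetal liver. They were selected on their count summed over 4 libraries, out of 3550461 distinct sequences without a match among 3645466 sequences of that size. A sequence had no match when it was absent from every GENCODE miRNA hairpin, also after removal of 1 to 3 nt from its 3' end. The libraries came from 2 genotypes, wildtype and Ago2 CD, a catalytic dead form of Ago2, with 2 replicates each, described by the submitters as biological. Strain, age, the exact mutation and any pooling of livers are not given in the sources used here. All counts below are listed as wildtype replicate 1, wildtype replicate 2, Ago2 CD replicate 1 and Ago2 CD replicate 2. The files differ in their longest read. It is 50 nt for the first and the last library of that order, called the 50 nt libraries, and 46 nt for the others, called the 46 nt libraries. Each kind holds 1 library of each genotype.

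A miRNA is cut from a hairpin precursor and loaded into an Argonaute protein, where its seed, bases 2 to 8, pairs with target RNA. Most precursors are cut by Dicer, but that of miR-451a is too short for Dicer and is cut by Ago2 itself, then trimmed from its 3' end. MiR-451a and miR-144 come from neighbouring hairpins and are abundant in red cell precursors, which fill the fetal liver at the time it makes blood. Whether changed reads arose in the cells or during library preparation and sequencing was not tested.

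Of the 200 sequences, 150 equalled a hairpin stretch but for 1 base, which lay inside the read in 118 and at its first base in 32. Another 2 had a tail of 4 nt or more, 1 was an end of a tRNA, and 47 fell into none of these groups. The 47 comprised 17 with a mismatch and a tail of 1 to 3 nt, 10 with 2 mismatches, 5 with a deletion of 1 nt and 2 with a deletion of 2 nt. A further 1 had a deletion and a tail, 1 had extra bases at the 5' end, 1 was a tRNA end with a mismatch, and 10 were not placed. These readings are not unique, since some sequences can be read in another way. MiR-144-3p was the source of 78 members and miR-451a of 55, and together they made up 80.3% of all member reads. The rest came from Mir122 (14 members), miR-16-5p (11), miR-142a-3p (10), miR-19b-3p (5), miR-92a-3p (3) and 2 each from miR-19a-3p, miR-30a-5p, miR-30e-5p and tRNA-Val-CAC. MiR-15b-5p, miR-21a-5p, miR-26a-5p, miR-136-5p and miR-369-3p gave 1 each. Another 1 was grouped with the Gm47276/Gm47281 hairpins by a tail, but it is also a whole match to 5S ribosomal RNA. It is called the Gm47276/Gm47281 sequence below. No member came from the let-7 family. The members of Mir122, a hepatocyte miRNA, are counted but their letters are not printed.

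The mature forms of the miRNAs with the most members are shown first, from RefSeq (GRCm38.p6), with the seed in capitals. RefSeq held a mature sequence for 14 of the arms with members.
miR-144-3p: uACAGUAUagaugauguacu
miR-451a: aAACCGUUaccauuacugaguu
miR-16-5p: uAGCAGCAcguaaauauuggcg
miR-142a-3p: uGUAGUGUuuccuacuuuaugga
miR-19b-3p: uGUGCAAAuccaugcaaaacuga
MiR-144-3p lies on chromosome 11 at 78073047 to 78073066 and miR-451a at 78073186 to 78073207, both on the plus strand. MiR-15b-5p has the same seed as miR-16-5p, miR-19a-3p the same as miR-19b-3p, and miR-30a-5p the same as miR-30e-5p.

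The 3 most frequent members of miR-144-3p, the miRNA with the most members, are shown with A11T and A9T. Among members higher in both Ago2 CD libraries, A11T and A9T were among those with the smallest unadjusted p. A change is written as the hairpin base, its position from the read's 5' end and the read base, and the changed base is in capitals.
miR-144-3p G5T: tacaTtatagatgatgtact
miR-144-3p A4T: tacTgtatagatgatgtact
miR-144-3p G13T: tacagtatagatTatgtact
miR-144-3p A11T: tacagtatagTtgatgtact
miR-144-3p A9T: tacagtatTgatgatgtact
The unchanged 20 nt read had 1203178, 1123428, 3862837 and 2232743 reads. G5T, which changes a seed base, was the most frequent member with 21261, 4034, 14487 and 51219 reads. That was 1.77%, 0.359%, 0.375% and 2.29% of the unchanged read. Both 50 nt libraries were high and both 46 nt libraries low, and the genotypes overlapped. A4T showed the opposite order, with 5096, 13402, 41982 and 8320 reads, or 0.424%, 1.19%, 1.09% and 0.373% of the unchanged read. G13T, outside the seed, had 6960, 9723, 30916 and 12655 reads, or 0.578%, 0.865%, 0.800% and 0.567%. A11T had 6129, 5886, 27000 and 11478 reads, and A9T 5413, 4956, 22118 and 10713. These last 2 were at 0.441% to 0.699% of the unchanged read in the 4 libraries. Their counts were higher in both Ago2 CD libraries, but this was given by the choice, since both were picked from such members. Of all sequences, 7.85% were higher in both Ago2 CD libraries. The edgeR unadjusted p was 0.305 for A11T and 0.299 for A9T.

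All 48 possible changes of 1 base at positions 2 to 17 of this 20 nt read were counted, of which 29 were members. Summed, the changed reads amounted to 8.62%, 7.66%, 7.69% and 9.21% of the unchanged read. At position 5, where the hairpin has G, the sum was 1.82%, 0.402%, 0.412% and 2.36%. Position 4, an A, gave 0.585%, 1.61%, 1.51% and 0.518%. Position 12, a T, gave 0.0777%, 0.0806%, 0.0832% and 0.0844%, and position 17, also a T, 0.0675%, 0.0790%, 0.0731% and 0.0751%. At positions 4 and 5 the libraries thus split by longest read, and at positions 12 and 17 all 4 were at similar low levels.

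Most changes led to T. Of the 118 members with an internal change, 98 (83.1%) read T at the changed base, with 41 A to T, 41 G to T and 16 C to T. The same change can recur in reads of several lengths, and the 118 members hold 85 distinct combinations of hairpin, position and change. A to G, the change that A-to-I editing leaves in a read, was seen in 6 (5.08%), and editing was not tested. Over all 2150 sequences with 1 internal mismatch and at least 200 reads, which include the members, 71.1% read T and 7.26% were A to G. The change lay in positions 2 to 8 in 50 members and after position 8 in 68. Among the members tested below for their ratio to the unchanged read, 35 of 41 G to T members had a higher ratio in both 50 nt libraries and 2 in both 46 nt libraries. For A to T the numbers were 14 and 13 of 36, and over all 1877 sequences tested for the ratio the shares were 54.6% and 20.8%. The difference between the kinds of change was not tested.

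Members of miR-451a had reads almost only in wildtype, as did most of their unchanged reads. An exception was the 18 nt hairpin stretch left after removal of the tail from the long-tailed member, with 552, 7639, 500 and 313 reads. Shown with the changed base in capitals are the 2 most frequent first-base members, 3 members of small unadjusted p for lower counts in Ago2 CD (G18T, C5T and C4T), and A19T, which was among those of small unadjusted p for a higher ratio to the unchanged read.
miR-451a G1C: Caaaccgttaccattactgagttt
miR-451a A1T: Taaccgttaccattactgagttt
miR-451a G18T: aaaccgttaccattactTagttt
miR-451a C5T: aaacTgttaccattactgagttt
miR-451a C4T: aaaTcgttaccattactgagttt
miR-451a A19T: aaaccgttaccattactgTgtttagt
The unchanged 23 nt read had 1999749, 1302138, 2560 and 1444 reads. G18T had 12488, 11200, 27 and 15 reads, and C5T 10371, 6012, 13 and 6. Neither overlapped between genotypes, but both were picked from members lower in both Ago2 CD libraries, so this was given by the choice. Of all sequences, 12.2% were lower in both Ago2 CD libraries. The log2 fold changes of G18T and C5T were -10.08 (SE 0.84) and -10.73 (SE 1.03), with an edgeR adjusted p of 0.294 for both. C4T had 3041, 5884, 5 and 3 reads. The 55 members of this miRNA summed to 394920, 168370, 430 and 332 reads, with a median log2 fold change of -10.51 against 0.08 over all sequences tested. Within the 46 nt pair of libraries the median was -9.06 and within the 50 nt pair -10.36.

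The levels relative to the unchanged read were as follows. G18T was at 0.624%, 0.860%, 1.05% and 1.04% of the 23 nt read, and C5T at 0.519%, 0.462%, 0.508% and 0.416%. The 57 possible changes at positions 2 to 20 of the 23 nt read, 15 of them members, summed to 8.64%, 7.02%, 8.12% and 9.70% of it. In Ago2 CD these sums rest on 208 and 140 reads. At position 4, a C, the sum was 0.188%, 0.839%, 0.664% and 0.208%, higher in both 46 nt libraries. At position 20, a G, it was 1.09%, 0.360%, 0.273% and 1.94%, higher in both 50 nt libraries. In Ago2 CD these values rest on only 17 and 3 reads at position 4 and 7 and 28 reads at position 20. None of the 5 T positions of this stretch (7, 8, 13, 14 and 17) gave a member, and none reached above 0.313% in a library. That highest value, at position 13, rests on 8 reads in Ago2 CD replicate 1. A19T, on the 26 nt form, had 15175, 5974, 31 and 15 reads, or 1.28%, 0.664%, 1.67% and 2.62% of that form.

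Of the 32 members changed at the first base, 14 were on miR-451a and 7 on miR-144-3p. On miR-451a, 5 members read C where the hairpin base before the mature start is G, summing to 87034, 10665, 21 and 81 reads. The most frequent of them, G1C of 24 nt, had 51075, 4591, 5 and 35 reads, which was 2.55%, 0.353%, 0.195% and 2.42% of the read that lacks its first base. The templated 24 nt read with G at that base had only 135, 2982, 5 and 0 reads. The same start with A in place of G gave 2 members with 1244, 16840, 28 and 1 reads. Among these members C was thus the more frequent base in both 50 nt libraries and A in both 46 nt libraries, by few reads in Ago2 CD. A1T, a change of the first mature base itself, had 16285, 7262, 15 and 14 reads, at 0.814%, 0.558%, 0.586% and 0.970% of the unchanged read.

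On miR-144-3p the base before the mature start is C, and reads that replace it favoured the 46 nt libraries.
miR-144-3p C1A: Atacagtatagatgatgtact
C1A had 321, 7049, 25947 and 939 reads, at 0.0267%, 0.627%, 0.672% and 0.0421% of the 20 nt read that follows the changed base. C1G had 65, 2625, 8624 and 209 reads. C1T had 628, 2980, 9306 and 1324 reads. All 3 were low in both 50 nt libraries, and the genotypes overlapped.

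MiR-16-5p, which restrains cell division, had 11 members with 17065, 10328, 18861 and 31865 reads, and the 54 possible changes of its 22 nt read summed to 12.8%, 9.33%, 8.77% and 16.7% of it. Its members had a median log2 fold change of -0.10. MiR-19b-3p, from growth-promoting clusters named after mir-17 and mir-92, had 5 members with 9253, 21, 43 and 17747 reads. Their unchanged 20 nt read followed the same order, with 217047, 914, 2203 and 355279 reads, so that the members were at 0.182% to 1.81% of it.
miR-19b-3p G14T: tgtgcaaatccatTcaaaac
G14T had 1408, 6, 9 and 2117 reads, or 0.649%, 0.656%, 0.409% and 0.596% of the unchanged read. The 4 members of the mir-30 family, which is widely expressed, had a median of 9.49%, 0.737%, 0.558% and 15.8% of their unchanged 24 nt reads. In the 50 nt libraries these were the highest medians among the lists of miRNA families and cell types. Some single miRNAs had higher medians there, such as miR-19a-3p with 13.3% and 17.5%. Both 50 nt libraries were above both 46 nt libraries in the counts of all 4 mir-30 members, against 35% of all sequences.

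MiR-142a-3p, a miRNA of blood cells, had 10 members with 9385, 7987, 19025 and 11503 reads, but no sequence was frequent in all libraries. Of its members, 6 were at 0 in both 50 nt libraries and 4 were at 4 reads or fewer in wildtype replicate 2. The unchanged 22 nt read that ends in TGGA had 1, 179132, 404285 and 0 reads. The 18 nt read of the same start that stops before those bases had 116727, 67, 219 and 161355. Over the whole files, 2, 352902, 744946 and 3 reads of 18 to 27 nt ended in TGGA. Of the 8 members of any miRNA with 0 reads in both 50 nt libraries, 6 ended in TGGA. These are not the same 6, since G1A of miR-136-5p ended in TGGA and 1 miR-142a-3p member ended in TGG. The libraries that held a given member of miR-142a-3p were thus 1 of each genotype.

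Mir122, the main miRNA of hepatocytes, had 14 members with 5022, 15141, 41567 and 19109 reads. Single members had between 165 and 590 reads in wildtype replicate 1 and between 459 and 8506 in Ago2 CD replicate 1. Their median log2 fold change was 0.58, 0.25 within the 46 nt pair and 1.08 within the 50 nt pair. Reads on the hepatocyte hairpins as a whole ranged from 10970 to 77568 per 1000000 reads of 18 to 27 nt, lowest in wildtype replicate 1, and their part in these counts was not tested. Fewer cells of a type and less RNA per cell cannot be told apart in such bulk samples.

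Reads with a deletion of 1 nt came from miR-144-3p, miR-16-5p and Mir122. They are shown with the bases on either side of the deletion in capitals.
miR-144-3p, 18 nt: tacagtatagatgAGtac
miR-144-3p, 19 nt: tacagtatagatgAGtact
miR-16-5p, 21 nt: tagcACacgtaaatattggcg
The first had 5461, 191, 461 and 20215 reads, the second 4436, 287, 733 and 13761, and the third 3142, 204, 387 and 6692. All 5 members with a 1 nt deletion were higher in both 50 nt libraries, against 35% of all sequences. Deletions of 2 nt were seen in 2 members of miR-144-3p.
miR-144-3p, 2 nt deletion: taCTatagatgatgtact
miR-144-3p, other 2 nt deletion: tacagtAGatgatgtact
The first of these followed the 50 nt libraries, with 1183, 61, 190 and 4833 reads. The second had 465, 943, 441 and 1983 reads and did not follow them.

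Reads with 2 mismatches came from miR-144-3p in 9 of 10 members and the 3 most frequent joined A to T changes.
miR-144-3p A4T A7T: tacTgtTtagatgatgtact
miR-144-3p A9T A11T: tacagtatTgTtgatgtact
miR-144-3p A7T A11T: tacagtTtagTtgatgtact
The first had 274, 1955, 6632 and 399 reads, the second 298, 693, 3820 and 578, and the third 407, 687, 2907 and 674. Each was at 0.174% or less of the unchanged read in every library, and each had its highest count in Ago2 CD replicate 1, the deepest library.

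Tailed members were mostly miR-144-3p reads that joined a mismatch to an added C, shown with both in capitals.
miR-144-3p G5T with C: tacaTtatagatgatgtacC
miR-144-3p A7T with C: tacagtTtagatgatgtacC
miR-144-3p G13T with C: tacagtatagatTatgtacC
G5T with C had 6823, 2, 7 and 21439 reads, A7T with C 2827, 3, 16 and 6428, and G13T with C 2472, 6, 18 and 5161. Over the 15 members that joined a mismatch or a deletion to a tail of 1 to 3 nt ending in C the sums were 38801, 32, 157 and 74025 reads. These reads were thus nearly absent from the 46 nt libraries of both genotypes. Among them was a deletion read of miR-144-3p with an added C, which had 1424, 0, 2 and 5433 reads.

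The 2 members read as longer tails each had another reading. The tail, or for the tRNA the CCA, is in capitals.
Gm47276/Gm47281: tacttggatgggagacCGCC
miR-451a, 26 nt: aaaccgttaccattactgTGTTTAGC
tRNA-Val-CAC: aaccgggcggaaacaCCA
The first is also a whole match to annotated 5S ribosomal RNA genes, such as Rn5s, and had 966, 0, 0 and 7282 reads. The second, which can also be read as a mismatch with a short tail, had 3430, 18, 0 and 2 reads, all but 2 of them in wildtype. The tRNA member matches the 3' end of tRNA-Val-CAC with the CCA that is added to every mature tRNA, and had 715, 57, 86 and 5435 reads. A read with 1 mismatch to this end had 463, 17, 29 and 4425 reads. Both were high in Ago2 CD replicate 2, next in wildtype replicate 1 and low in the 46 nt libraries. Whole sequences of 13 and parts of 6 of 430 nuclear tRNA genes could be searched, so the number of tRNA members is a lower limit. The name tRNA-Val-CAC is that of the match found, and tRNAs that were not searched may have the same end.

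A member of miR-451a with 2 bases in front of the mature start is shown with these in capitals.
miR-451a, extra 5' bases: TCaaaccgttaccattactgagttt
It had 6377, 362, 0 and 6 reads. The 10 members not placed had 15633, 3147, 6976 and 57308 reads in all. The most frequent had 6163, 434, 693 and 22506 reads, the next 1462, 66, 95 and 8552, and the third 1600, 0, 1 and 8401. Of the 10, 9 were higher per 1000000 reads in both 50 nt libraries, against 35% of all sequences.

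Wildtype and Ago2 CD were compared by the edgeR quasi-likelihood test over all 32881 sequences of 18 to 27 nt that passed its filter, 198 of the members among them. The members' places in that test are partly given by their choice, since a sequence abundant in 1 genotype alone enters the set through it. No member passed an adjusted p under 0.05, against 0% of all sequences, with 52 members and 2904 sequences at an unadjusted p under 0.05. DESeq2 called 2277 sequences, with 0 members higher and 53 lower in Ago2 CD. The smallest adjusted p of a member in edgeR was 0.294. The median log2 fold change was 0.37 over the members and 0.08 over all sequences. With reads of 18 to 27 nt as library size and no TMM factors, the median over all sequences was 0.61 and that of the members 0.93, so both were higher by over 0.5 with that scaling alone.

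G5T of miR-144-3p had a log2 fold change of 0.66 (SE 1.34, edgeR adjusted p = 1.00), A4T 0.38 (SE 0.89) and G13T 0.40 (SE 0.57). G1C of miR-451a had -11.11 (SE 2.64, edgeR adjusted p = 0.294). The 78 members of miR-144-3p had a median of 0.57, with 0.67 within the 46 nt pair and 0.41 within the 50 nt pair. Counts per 1000000 reads with TMM-scaled library sizes were compared for overlap between genotypes. In all, 17 members were higher in both Ago2 CD libraries, against 7.85% of all sequences, and 55 lower, against 12.2%. Of the 55, 54 were on miR-451a, and of the 17, 13 were on miR-144-3p and 4 on Mir122. By longest read, 83 members were higher in both 50 nt libraries, against 35% of all sequences, and 33 lower, against 38.9%. Per 1000000 reads, 52 members were over 5 times higher in both 50 nt libraries, against 18.1% of all sequences, and 14 in both 46 nt libraries, against 16.5%.

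With the longest read as a batch term in edgeR, 23 members passed as higher in Ago2 CD, against 2.44% of all sequences, and 53 as lower, against 9.42%. All 53 were on miR-451a. Of the 23, 15 were on miR-144-3p, 3 on Mir122, 2 on tRNA-Val-CAC and 2 not placed, and the other was the Gm47276/Gm47281 sequence. In this model G5T of miR-144-3p had a log2 fold change of 0.67 (SE 0.22, edgeR adjusted p = 0.0186) and was higher in Ago2 CD within both pairs, by 0.68 and 0.66. Each kind of library holds 1 of each genotype, so the p values of this model rest largely on a dispersion shared over sequences. These calls are of counts and do not set a changed read against its unchanged read. With the same batch term, the log2 ratio of G5T to its unchanged read differed by 0.22 (SE 0.33, limma unadjusted p = 0.533). The Gm47276/Gm47281 sequence had a log2 fold change of 2.29, a value that rests on the 50 nt pair because both 46 nt libraries were at 0. That pair is 1 library of each genotype, so its call does not measure a spread between replicates. The tRNA-Val-CAC end had 1.04 (SE 0.32, edgeR adjusted p = 0.0115), with -0.56 within the 46 nt pair and 2.31 within the 50 nt pair, so the pairs differed in sign.

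Whether the share of changed reads differed between genotypes was tested with limma on the log2 ratio of the changed to the unchanged read, for 1877 sequences with at least 200 unchanged reads in every library. No member of 123 passed, against 0% of all, with 0 members and 19 sequences at an unadjusted p under 0.05. With the longest read as a batch term 5 members had an unadjusted p under 0.05 and none passed in limma (smallest adjusted p 0.523). The median log2 ratio difference was 0.09 over the members and 0.09 over all sequences tested. G5T of miR-144-3p had 0.22 (SE 1.28), and the 46 members of that miRNA that were tested a median of 0.04. For the 40 tested members of miR-451a the median was 0.44, and the counts behind it in Ago2 CD were few. A19T had 1.22, the 26 nt form of G18T 1.23, and A12T 1.05, with 31 and 15, 13 and 11, and 11 and 4 reads in Ago2 CD. The ratio was higher in both Ago2 CD libraries in 12 members, against 9.59% of all, and lower in 2, against 3.41%. It was higher in both 50 nt libraries in 70 members, against 54.6%, and lower in 29, against 20.8%.

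As a share of reads outside the mir-451a hairpin, the 150 mismatch members made up 6.55%, 3.83%, 2.30% and 2.65%. The genotype means were 5.19% ± 1.92 (SD, n = 2) and 2.47% ± 0.250 (SD, n = 2), a difference of -2.71 percentage points with an exact permutation p of 0.333, two-sided, the smallest that 2 against 2 libraries can give. The miR-451a members are part of that share, while the reads of their hairpin are outside its denominator. All members but those of miR-451a, 145 in number, made up 2.93%, 1.89%, 2.51% and 4.21%, so that the genotypes overlapped. Longer tails differed by 0.000431 percentage points, tRNA by 0.0156 and the other members by 0.240, with exact permutation p of 1, 1 and 0.667. In each of these 3 groups, both 50 nt libraries were above both 46 nt libraries.

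The limit of 200 fell at a summed count of 3450. Just inside were C7T of miR-16-5p with 3474 reads, a Mir122 read with 3460 and the long-tailed miR-451a read with 3450. Just outside were a Mir122 read with 3420, G1T of the 27 nt form of miR-451a with 3410 and A14T of miR-16-5p with 3406.

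The libraries held 13138065 to 21875540 reads, of which 11760632 to 19363776 were of 18 to 27 nt. Of the latter, 16.1% to 25.8% matched no hairpin, the most in Ago2 CD replicate 2. The members' reads were 24.9%, 16.9%, 13.9% and 16.3% of them. Erythroid hairpins had 6705941, 5184126, 4950456 and 3161457 reads. The mir-451a hairpin is among them and had 5884976, 3738063, 45010 and 33878 reads, so their sum does not compare red cell content between genotypes. Per 1000000 reads of 18 to 27 nt, erythroid hairpins had 470241, 440803, 255656 and 231940 reads. Those of myeloid and lymphoid cells had 29539 to 72926. Muscle hairpins had 270.5 in wildtype replicate 1 and 13.5 to 23.5 in the other libraries, and neuron hairpins 202.6 and 324.6 in the 46 nt libraries and 5.47 and 11.5 in the 50 nt libraries. Their part in the members' counts was not tested.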

How the data were processed

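The deposited files hold counts, the number of reads with each distinct sequence, without normalization. Cutadapt is named without a version, per the submitters' processing notes; adapters, filters and build are not given in the sources used here. Repeated rows were summed and reads with N left out. Hairpins, small RNAs and transcripts were those of GENCODE vM21 (GRCm38), searched on the sense strand. Sequences were placed in the first group that fitted, in the order 1 mismatch (none in the last 3 nt), longer tail (at least 16 nt left), tRNA, other. The reading with 2 deleted bases was added after sequences were seen. The members and lists were chosen with earlier results of these data known. Counts were tested in R 4.3.3 with edgeR 4.0.16 (glmQLFTest, TMM, filterByExpr, Benjamini-Hochberg, two-sided, adjusted p under 0.05), ratios with limma 3.58.1 (pseudocount 0.5), and DESeq2 1.42.0 was an alternative. Within-pair values are differences of log2 counts per 1000000 with a prior count of 2. Standard errors were derived from the fold change and the F statistic. Members named were the 3 most frequent of each group and subgroup, those first by size or p in either direction and those at the limit; others were chosen after their values were seen. On simulated counts both tests recovered changed sequences, but the ratio test made false calls among sequences with few expected reads. Pairing was checked by the correlation of deviations from genotype means, which was -0.909 for libraries of 1 replicate number and 0.909 for libraries of 1 longest read. Reads carried no molecular identifiers, so counts may not be independent molecules.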

Additional observations from a re-analysis of the deposited data

How the results depend on the processing

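Depth limits members with few reads in some libraries, such as those of miR-451a, with at most 35 reads each in an Ago2 CD library, and those of miR-19b-3p, with at most 16 in a 46 nt library, and 2 libraries per genotype limit every test. No member passed in edgeR with DESeq2 size factors, library sizes without TMM factors, either filter of 20 reads, sequences without a hairpin match or the replicate block, which lowered the sequences at an unadjusted p under 0.05 from 2904 to 531. The numbers do not pair the libraries, so this block is no measure of a weaker effect. The longest read as a batch term gave 23 members higher and 53 lower, and DESeq2 53 lower. The crossed replicate block, added after seeing the data, puts the same libraries together as the longest read does and is therefore the same model, with 23 and 53. Leaving out 1 library gave 0 to 50 members lower, with 29 without wildtype replicate 1, 50 without wildtype replicate 2 and 0 without either Ago2 CD library; the lone library is then assumed to vary like the others. The cause was not tested.

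Among named members, the miR-144-3p read with a 2 nt deletion between A and G had a log2 fold change of 0.18. It turned to -0.037 with library sizes outside mir-451a and -0.026 with sequences without a hairpin match. With the replicate block it was -0.39 and with the batch term -0.38. G14T of miR-19b-3p turned to 0.65 and C7T of miR-16-5p to 0.41 without TMM factors. With a pseudocount of 2 the ratio of C5T and C4T of miR-451a turned to 0.22 and 0.23. The difference in longer tails was -0.0661 percentage points over the first 400 sequences.

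Leaving out 1 library turned 24 fold changes of named members. The ranges for miR-144-3p were -1.19 to 2.26 (G5T), -0.86 to 1.19 (A4T), -0.087 to 0.59 (G13T), -2.70 to 4.20 (C1A), -10.31 to 11.67 (G5T with C), -7.87 to 9.36 (A7T with C), -7.51 to 8.07 (G13T with C), -4.03 to 5.08 and -3.10 to 3.97 (1 nt deletion, 18 and 19 nt), -9.75 to 14.45 (deletion with C), -3.12 to 4.68 and -1.97 to 0.80 (2 nt deletions), -2.20 to 2.50 (A4T A7T), -0.48 to 1.75 (A9T A11T) and -0.39 to 1.10 (A7T A11T). They were -3.52 to 3.42 for the deletion and -1.0 to 0.28 for C7T of miR-16-5p, -7.68 to 6.78 for G14T of miR-19b-3p, -12.60 to 14.87 for Gm47276/Gm47281, -3.57 to 4.92 and -4.45 to 6.36 for tRNA-Val-CAC, and -3.66 to 4.06, -4.42 to 5.36 and -10.79 to 15.08 for the members not placed. Ratios ranged from -1.09 to 1.53 (G5T), -0.93 to 0.61 (A4T), -0.36 to 0.22 (G13T), -0.0072 to 0.44 (A11T), -1.85 to 2.72 (C1A) and -0.20 to 0.91 (A11C) for miR-144-3p. They ranged from -0.15 to 0.57 (A1T), -0.12 to 0.11 (C5T), -0.99 to 0.58 (C4T) and -0.23 to 0.34 (C11T) for miR-451a, from -1.15 to 1.59 (G7T) and -0.69 to 1.17 (G16T) for Mir122 and from -0.75 to 0.92 for C7T of miR-16-5p. Shares ranged from -0.0264 to 0.0272 percentage points for longer tails, -0.00418 to 0.0353 for tRNA, -0.385 to 0.865 for other members and -4.07 to -1.35 for mismatch members.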
